A study of Mus musculus with 108 samples.

Results

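Of 58916 distal sites of open chromatin recovered in an enhancer reporter screen, 6298 (10.7%) carried a fragment from YFP-positive cells at every stage of blood specification examined, and these are described here. A site was made by merging overlapping distal fragments of the 95 sorted libraries. The sites were chosen by the positive cells themselves, with at least 1 fragment from a Low, Medium, High or Medium/High gate, replicates pooled, at each of the 5 stages, so that their presence in positive cells is a description and not a finding. In the screen, open chromatin fragments cut by the Tn5 transposase were placed before the HSP68 minimal promoter and a Venus-YFP gene and inserted by homologous recombination at the Hprt locus of HM-1, a male mouse embryonic stem cell line whose Hprt locus is repaired by the insertion. Carriers of the pooled reporters were differentiated in serum and collected as embryonic stem cells (ES), FLK1-positive hemangioblasts (HB), early and later hemogenic endothelium (HE1, HE2) and hematopoietic progenitors (HP). At each stage there were 5 replicates, sorted by YFP into 4 gates (Negative, Low, Medium, High) in replicates 1 to 4 and 3 gates (Negative, Low, Medium/High) in replicate 5. All groups thus share 1 parental line, 1 insertion site and 1 promoter.

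An enhancer is a stretch of DNA that raises transcription from a promoter placed beside it, through transcription factors bound to short motifs. Most enhancers act in few cell types. Sites that are open in many cell types are known to include promoters rich in CpG dinucleotides, which bind factors of the KLF and SP families, and sites bound by CTCF, a zinc finger protein that anchors chromatin loops and can insulate enhancers from promoters. Hemogenic endothelium is the endothelium from which blood cells bud, under the control of RUNX1 and GATA2. The study ties factors of the AP-1 and TEAD families to endothelial enhancers under VEGF, and TEAD with SOX17 to repression of Runx1.

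The sorted lists held distinct fragments without read counts, and their depth was uneven. A library listed 504 to 131091 fragments (median 7918), of which 126 to 45186 were distal. The medians were 60062.5 listed fragments in replicate 1 and 41608 in replicate 2, against 1948, 1725 and 1112 in replicates 3, 4 and 5. In HE1, 4 libraries shared many fragments with another library (Negative replicates 1 and 3, Medium replicate 2 and Low replicate 4), and without them 6208 sites met the rule. The labels do not say that replicates came from separate cultures, so that p-values measure the spread between these samples, which may be technical.

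The members positive in the largest number of the 25 stage and replicate sets are shown first, to give the sequence at the head of the list. Each line is 200 bases of GRCm38.p6 (the mm10 assembly), plus strand, around the deepest overlap of positive fragments. Capitals mark the motifs searched for, on either strand, where they occurred.
chr8:4677670-4677869: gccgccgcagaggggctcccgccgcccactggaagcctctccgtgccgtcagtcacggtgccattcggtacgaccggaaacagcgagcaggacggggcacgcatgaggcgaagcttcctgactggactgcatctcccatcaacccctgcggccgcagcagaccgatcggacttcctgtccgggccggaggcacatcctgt
chr7:73537797-73537996: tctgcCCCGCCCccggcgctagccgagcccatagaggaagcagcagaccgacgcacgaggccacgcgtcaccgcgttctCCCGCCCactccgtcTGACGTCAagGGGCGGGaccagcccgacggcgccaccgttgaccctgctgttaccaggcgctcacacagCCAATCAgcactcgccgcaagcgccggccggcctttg
chr19:44267017-44267216: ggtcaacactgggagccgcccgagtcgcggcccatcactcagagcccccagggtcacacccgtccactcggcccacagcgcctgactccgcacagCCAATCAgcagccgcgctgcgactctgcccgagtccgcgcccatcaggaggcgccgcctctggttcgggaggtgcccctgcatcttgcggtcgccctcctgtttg
chr7:27490761-27490960: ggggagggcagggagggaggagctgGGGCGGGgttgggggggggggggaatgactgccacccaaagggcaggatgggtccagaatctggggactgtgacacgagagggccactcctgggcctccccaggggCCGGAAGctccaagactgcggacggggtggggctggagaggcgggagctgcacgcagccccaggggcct
chr9:110781452-110781651: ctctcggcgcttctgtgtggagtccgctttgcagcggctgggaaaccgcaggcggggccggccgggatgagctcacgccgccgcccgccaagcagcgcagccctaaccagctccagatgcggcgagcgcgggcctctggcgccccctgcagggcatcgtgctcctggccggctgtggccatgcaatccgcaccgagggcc

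None of these 5 windows holds any of the CTCF strings searched, which are listed with the motif shares below. Other forms of the CTCF motif were not searched for, so their absence is not shown for these windows. The second holds GGGCGGG of KLF and SP factors, TGACGTCA of CREB factors and CCAATCA of NFY, the third holds CCAATCA alone, and the fourth holds GGGCGGG and the ETS motif CCGGAAG. Their GC content was 67.5%, 70.5%, 70.0%, 72.0% and 73.0%, in the order printed, against an interquartile range of 47.5% to 55.5% over all distal sites. The observed over expected CpG ratio was 0.884, 1.04, 0.803, 0.307 and 0.826, and that of the fourth was the nearest to the median of all distal sites (0.207). The same sites were cloned deeply, with 749, 427, 277, 381 and 319 distinct fragments in the reporter plasmid lists, against a median of 52 over all members. Sequence and cloned depth are thus not told apart here.

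The site chr8:4677378-4678482 had a positive fragment in 24 of 25 sets. It overlaps an exon of Gm7461, a non-coding gene model, and the nearest protein-coding transcription start was that of Zfp958, 51930 bp away. Its positive cells held 56, 59, 73, 82 and 43 distinct fragments from ES to HP. A fragment found in several replicates counts once there. In ES, replicates 1 to 5 gave 28, 30, 7, 5 and 1 positive fragments, or 2.80, 2.90, 2.40, 9.72 and 4.57 per 10000 listed. In HB they gave 29, 27, 12, 5 and 0, and the replicate 5 set was the single set without one. Negative cells were not free of it, with 23, 26, 34, 13 and 23 distinct fragments from ES to HP and a fragment in 22 of 25 Negative sets.

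The site chr7:73537539-73538474 was also positive in 24 sets. It lies in an intron of Chd2, a chromatin remodeller, 276 bp from its nearest annotated transcription start, although the deposited lists class it as distal. It had 52, 65, 77, 55 and 53 positive and 32, 29, 41, 23 and 20 Negative fragments from ES to HP. Replicate 3 of HE1 was the single set with no positive fragment. The intergenic site chr19:44266869-44267538 was positive in 23 sets and lies 26557 bp from the start of Scd2, a fatty acid desaturase. It had 27, 22, 39, 25 and 20 positive fragments and 11, 8, 16, 7 and 6 Negative ones.

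The intergenic site chr7:27490544-27491440, 3486 bp from the start of Sertad1, was positive in 22 sets, with 36, 31, 59, 51 and 36 positive and 10, 13, 25, 9 and 11 Negative fragments. The site chr9:110781241-110782177, also in 22 sets, is intergenic and 13117 bp from the start of Myl3, a myosin light chain of muscle. It had 21, 39, 53, 36 and 36 positive fragments and 8, 10, 19, 14 and 13 Negative ones. In all 5 leading members, more distinct fragments were listed in positive than in Negative cells at every stage. Positive sets pool 2 or 3 gates, however, and per 10000 listed fragments the order could turn. At chr8:4677378-4678482 in HP, positive cells gave 1.81, 1.501, 4.33, 3.57 and 6.68 per 10000 in replicates 1 to 5 and Negative cells 1.94, 3.41, 5.08, 3.79 and 24.4, higher in each replicate.

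The members as a whole were spread over these sets far more thinly. The number of positive sets ran from 5 to 24 with a median of 11, and 341 members (5.41%) were positive in at least 16. Positive fragments numbered 17 at the median, against 2 over all distal sites. Per stage the median was 3, 4, 6, 5 and 5 fragments from ES to HP, and the largest count was 118, in HE1. Positive fragments in at least 2 replicates of a stage were found for 80.1%, 85.1%, 88.8%, 83.7% and 72.7% of members from ES to HP. Only 8 members were positive in a single replicate, 966 (15.3%) were positive in replicates 1 and 2 alone or in 1 of them, and 479 (7.61%) were positive in all 5 replicates.

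**Figure D1:**
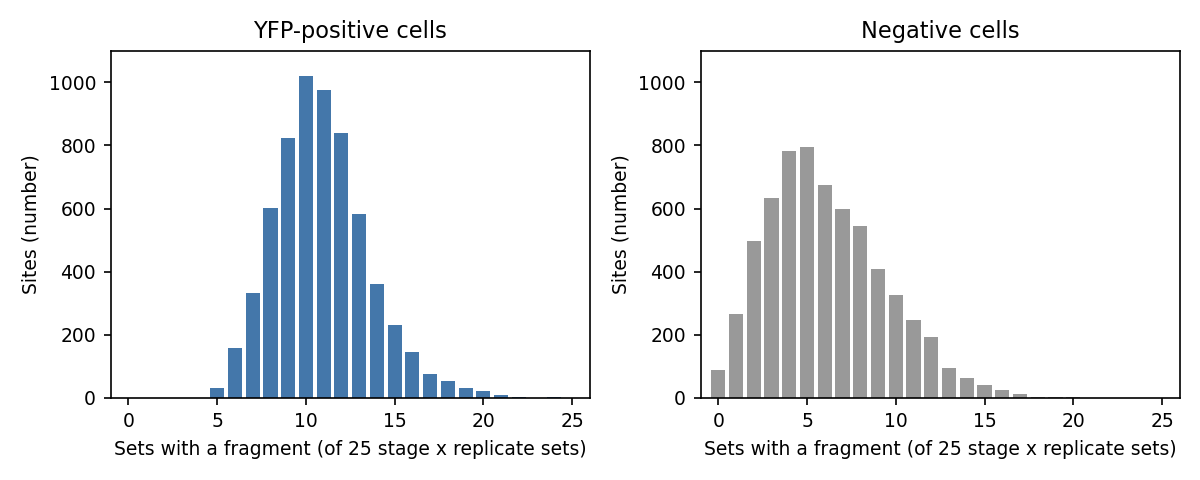
Number of the 6298 sites (y axis) by the number of stage and replicate sets, of 25, that held a fragment of the site (x axis), for YFP-positive cells (left) and Negative cells (right). Positive sets run from 5 to 24, and 87 sites were in no Negative set.

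Few members met the rule through a single piece of DNA. Of the 148961 distinct positive fragments that lay in members, 103927 (69.8%) were listed at 1 stage only, and 811 were positive at all 5 stages. These 811 fell in 732 members (11.6%). In the other members the stages were covered by different overlapping fragments, with at most 4 stages by 1 fragment in 1848 members, 3 in 2460, 2 in 1219 and 1 in 39. Members held 41.7% of all 356842 distinct positive distal fragments. Among positive fragments of a stage, 61.9%, 53.0%, 41.4%, 39.8% and 47.3% lay in members from ES to HP.

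The threshold cut through a continuous range. Just inside it, 1994 members (31.7%) had exactly 1 positive fragment at their weakest stage, with a median of 10 positive fragments in all. Just outside it, 4792 sites were positive at 4 stages, also with a median of 10 positive fragments. Of these, 2792 (58.3%) lacked ES, 669 lacked HB, 638 lacked HP, 371 lacked HE1 and 322 lacked HE2. ES also had the fewest positive distal fragments, 50392, against 138714 in HE1. With 50392 positive fragments drawn at every stage, 4454 sites met the rule on average over 20 draws. The site over the Mecom element that the study deleted, chr3:30353942-30354684 in an intron of Mecom, a transcription factor gene of blood stem cells, was among those just outside. It had no fragment in ES in positive or Negative cells, and 7, 12, 13 and 5 positive fragments in HB, HE1, HE2 and HP.

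The rule was next applied to 4 replicates at a time, and the replicate left out was read. With replicate 1 left out, 3703 sites were positive at all 5 stages in the other replicates, and replicate 1 held a positive fragment at 86.9%, 90.9%, 98.4%, 96.6% and 97.7% of them from ES to HP. Sites positive at 4 stages in the other replicates were met in 49.7% to 91.6%, and those positive at 1 stage in 8.17% to 22.7%. Negative cells of replicate 1 kept the same order. They held a fragment at 43.5% to 90.3% of the sites positive at 5 stages, at 18.4% to 78.3% of those at 4 and at 1.93% to 20.5% of those at 1. Each upper end was HE1, whose Negative replicate 1 is among the libraries that shared many fragments with another. That reading may thus not be wholly held out. The other stages reached at most 64.0%, 45.6% and 4.55%. In the shallow replicate 5, the 6280 sites positive at all 5 stages in the others were met by positive cells in 3.58% to 9.14% and by Negative cells in 1.75% to 3.47%.

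**Figure D2:**
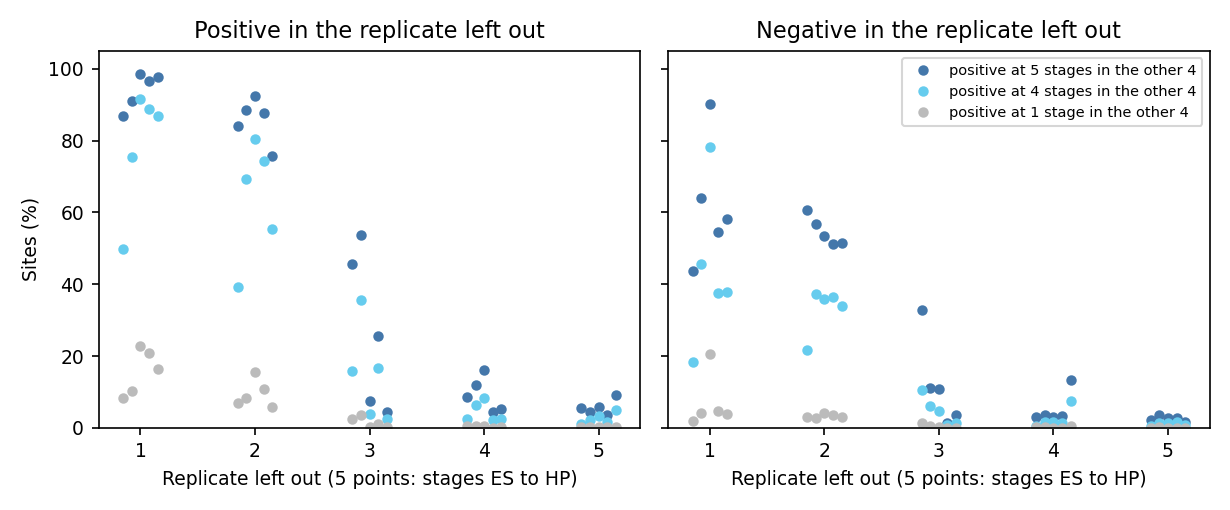
Percent of sites (y axis) with a fragment in the replicate left out (x axis), in its positive (left) and Negative (right) cells, for sites positive at 5, 4 or 1 stages in the other 4 replicates, with 5 points per replicate for the stages ES to HP in order. Sites positive at 5 stages lie above the others in each stage and replicate, in positive and in Negative cells, and all shares fall from replicates 1 and 2 to the shallower replicates.

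Presence in Negative cells was not asked for by the rule, although Negative fragments helped to set the extent of each merged site. A Negative fragment was listed for 74.2%, 74.0%, 87.9%, 67.3% and 69.7% of members from ES to HP, against 10.9%, 13.045%, 30.6%, 18.2% and 16.1% of the other sites. At all 5 stages 2332 members (37.0%) were also listed in Negative cells, and without the 4 HE1 libraries named above the share was 27.4%. A Negative fragment at any stage was not particular to members. It was listed for 98.6% of them and for 94.6% of the 4792 sites positive at exactly 4 stages. Of those 4792 sites, however, 64 (1.34%) were listed in Negative cells at all 5 stages. How far the 37.0% reflects whether a stage listed the site at all was not tested. Of the 2405 distal sites listed in Negative cells at every stage, 97.0% were members, while of the 23696 sites never listed in Negative cells 0.367% were. Negative fragments were not all apart from positive ones. Within a stage and replicate, 3.67% to 61.2% (median 28.2%) of the Negative fragments in members were identical to a fragment also listed in the positive gates.

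Only 87 members had no Negative fragment at any stage, and they had a median of 19 fragments in the reporter plasmid lists against 52 over all members. Chosen after their values were seen, the 3 of these with the most positive sets were chr4:81178407-81179118 (12 sets, 14 positive fragments), chr2:17917365-17917910 (11 sets, 17 fragments) and chr11:115083309-115084085 (11 sets, 16 fragments). The last lies 7877 bp from the start of Rab37, and its window holds a CTCF, an AP-1 and a CAGCTG motif. At these depths a few Negative fragments could have gone unlisted.

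The share of the Negative distal fragments that lay in members was lower in HB than in ES, on a measure tied to the rule. In ES it was 59.9%, 66.2%, 58.1%, 55.6% and 65.9% in replicates 1 to 5, and in HB 53.8%, 55.3%, 52.6%, 50.8% and 52.4%. No ES value lay below an HB value, and the means were 61.1% ± 4.74 and 53.0% ± 1.67 (SD, n = 5). The difference of -8.17 percentage points had an adjusted p of 0.03175 (exact two-sided permutation test, raw p = 0.00794, the smallest it can give, adjusted over 4 transitions). The share was 48.9% ± 10.3 in HE1, 46.0% ± 4.82 in HE2 and 51.7% ± 8.83 in HP. The later steps of -4.06, -2.92 and 5.70 points did not pass the test (exact permutation test, adjusted p = 0.508, 0.659 and 0.508). HE1 replicate 3 at 65.6%, a library that shares many fragments with another, and HP replicate 3 at 66.7% lay far above the other replicates of their stage. Without the 4 HE1 libraries named above the step from HB to HE1 was -6.49 points (exact permutation test, adjusted p = 0.0357). HE1 Negative replicates 1 and 3 are among these 4. This step thus set fewer HE1 values against those of HB, and the 65.6% was left out. With same-numbered replicates paired, the step from ES to HB had an adjusted p of 0.25 (exact sign-flip permutation test), where 5 pairs cannot give less than 0.0625 before adjustment. In bins of 500 bp in place of merged sites the step was -7.26 points with an adjusted p of 0.127. The rule asks for a positive fragment in ES, and sites that lacked ES alone made up most of those just outside it. In the positive cells that chose the members, the share moved likewise, 60.3% ± 4.67 in ES and 52.5% ± 2.41 in HB. Within a replicate, 4.94% to 44.5% of the Negative fragments in members in ES were identical to positive ones, and 13.5% to 44.8% in HB. The p of this step is thus not apart from the rule, and the part of the rule in the difference was not tested.

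**Figure D3:**
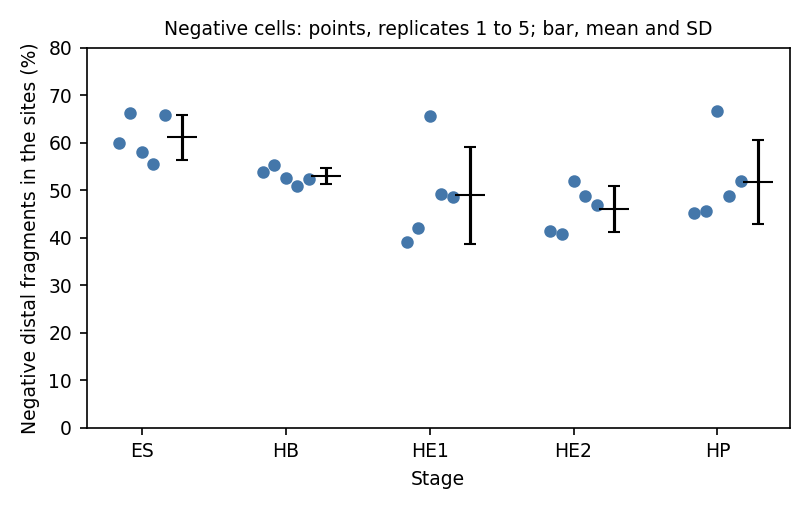
Percent of the distal fragments listed in Negative cells that lie in the 6298 sites (y axis) by stage (x axis). Points are replicates 1 to 5 from left to right, and the bar beside them is the mean with its SD. The 5 ES points (55.6% to 66.2%) lie above the 5 HB points (50.8% to 55.3%), and the later stages overlap.

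No difference between positive and Negative cells was detected in how much of their distal DNA came from the members, when each replicate was read against members chosen from the other 4. The held-out share in positive cells was 54.6% ± 4.79, 48.1% ± 4.46, 43.1% ± 9.72, 40.7% ± 7.84 and 44.8% ± 5.95 from ES to HP (SD, n = 5). In Negative cells it was 57.0% ± 6.88, 49.2% ± 4.22, 46.1% ± 12.7, 43.0% ± 7.63 and 48.7% ± 11.4. The differences of -2.40, -1.08, -3.03, -2.36 and -3.90 points were smaller than the spread between replicates (exact permutation test, adjusted p = 0.683 at each stage). The lists chosen without replicates 1 to 5 held 3703, 5005, 5993, 6252 and 6280 sites, so that part of this spread is the size of the list, which positive and Negative cells of a replicate share. With replicates paired the p was 0.1875, 0.375, 0.625, 0.3125 and 0.625 (exact sign-flip permutation test, adjusted p = 0.625 at each stage). Negative cells of replicate 3 stood at 64.7% in HE1 and 65.9% in HP, and without replicate 3 the differences at these stages were 1.18 and 0.500 points. For the high gates (Medium, High and Medium/High) less the Low gate the differences were 0.236, -1.97, -3.60, 0.0739 and 0.106 points from ES to HP (exact permutation test, adjusted p = 0.984 at each stage).

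Single sites gave no call either. Limma was run on log2 of fragments per 10000 listed with 1 added, over every distal site found in 10 or more of the 50 sets compared (4 or more of 10 for adjacent stages). Positive against Negative sets over all stages, 0 of 10479 sites passed an adjusted p of 0.05 (0.0% of those tested), with 403 (3.85%) under an unadjusted p of 0.05. Of the 6298 members, 5919 were tested, 0 were called and 306 (5.17%) lay under the unadjusted p, 304 of them higher in positive cells. The rule used the positive cells of this contrast, so that nothing is read from this direction. The median log2 change was 0.03 over the tested members and 0.02 over all tested sites. This fit takes the 25 sets of each side as independent, although they come from 5 replicate numbers, so that its SE and p may be off in either direction. With a replicate block 0 sites were called, and more lay under the unadjusted p, 603 sites and 454 members (7.67%). The smallest limma adjusted p was 0.927 without the block and 0.699 with it. With 1 value per replicate 0 sites were called as well. For the high gates against the Low gate, 0 of 8926 sites and 0 of 5561 members tested were called (0.0%), and 247 members (4.44%) lay under the unadjusted p against 3.59% of all sites. Of these 247, 239 were higher in the high gates and 8 lower, and as the rule used these cells too, nothing is read from this direction.

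Between adjacent stages no site passed either. In Negative cells 0.0% of 1949, 2603, 2512 and 1890 sites were called at the 4 steps, and 7, 4, 0 and 0 members lay under an unadjusted p of 0.05. These were 0.403%, 0.213%, 0.0% and 0.0% of the members tested, against 1.39%, 0.269%, 0.0% and 0.106% of all sites tested. In positive cells 0.0% of 6829, 8412, 12353 and 8467 sites were called, and 27, 10, 4 and 3 members lay under the unadjusted p. These were 0.543%, 0.195%, 0.0806% and 0.0691% of the members tested, against 3.46%, 1.87%, 0.105% and 0.0354% of all sites tested. The rule asks for a positive fragment at both stages of a step, so nothing is read from the member shares in positive cells. The median log2 change of the members at these 8 steps lay between -0.05 and 0.05, close to that of all sites tested.

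The members nearest to the threshold of these tests are named although none passed it. The following windows come from the member with the smallest p in each direction, positive above Negative, positive below Negative, high above Low and high below Low, in that order.
chr3:19706971-19707170: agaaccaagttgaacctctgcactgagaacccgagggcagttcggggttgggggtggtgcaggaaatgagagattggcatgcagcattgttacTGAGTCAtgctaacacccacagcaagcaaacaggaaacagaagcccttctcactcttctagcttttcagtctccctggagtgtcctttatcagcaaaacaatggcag
chr3:37204152-37204351: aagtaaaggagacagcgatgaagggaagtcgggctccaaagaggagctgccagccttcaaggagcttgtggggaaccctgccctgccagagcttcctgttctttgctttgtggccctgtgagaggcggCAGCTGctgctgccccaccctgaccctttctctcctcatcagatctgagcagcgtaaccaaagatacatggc
chr16:42781976-42782175: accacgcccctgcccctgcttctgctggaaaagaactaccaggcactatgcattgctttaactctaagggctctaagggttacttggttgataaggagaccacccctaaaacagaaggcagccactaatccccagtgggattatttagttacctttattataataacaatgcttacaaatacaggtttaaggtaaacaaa
chr9:120011247-120011446: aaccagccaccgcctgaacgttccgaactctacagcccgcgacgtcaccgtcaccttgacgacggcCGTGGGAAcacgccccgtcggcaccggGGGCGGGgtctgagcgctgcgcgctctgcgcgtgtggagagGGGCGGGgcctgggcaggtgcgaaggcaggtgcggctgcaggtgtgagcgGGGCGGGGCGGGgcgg

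The first lies in chr3:19706659-19707530, an intergenic site 11675 bp from the start of Crh, a stress hormone gene, and holds an AP-1 motif. It was listed in 19 of 25 positive and 7 of 25 Negative sets, at 0.878 ± 1.12 and 0.0974 ± 0.175 fragments per 10000 listed (mean ± SD), a log2 change of 0.61 ± 0.16 (SE, limma adjusted p = 0.927). The next in that direction was the Rab37 site above, in 11 positive and 0 Negative sets (adjusted p = 0.927). Below Negative cells lay chr3:37203683-37204590, 28313 bp from the start of the cytokine gene Il21, in 12 positive and 14 Negative sets with a log2 change of -0.51 ± 0.25 (adjusted p = 0.927). With it came chr13:5870395-5870826, 5847 bp from the start of Klf6, in 8 positive and 9 Negative sets.

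Toward the high gates lay chr16:42781746-42782791, in an intron of 4932412D23Rik, in 11 high and 1 low set (log2 change 0.14 ± 0.05, limma adjusted p = 0.906), and chr14:54939280-54939863, 1830 bp from the start of Cmtm5, in 10 high and 1 low set. Toward the Low gate lay chr9:120010821-120011778, an exon of the non-coding gene Gm49427, in 13 high and 16 low sets, with a log2 change of -0.64 ± 0.27 (adjusted p = 0.906). Its window had the highest GC content of those printed, 74.0%, with 1 RBPJ and 4 KLF and SP motifs. With it came chr3:129535856-129536623 in an intron of Elovl6, a fatty acid elongase, in 12 high and 14 low sets.

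Within the positive cells, gates were mixed at most members. Fragments from both the high and the Low gates were listed for 69.6%, 65.1%, 76.1%, 79.3% and 57.7% of members from ES to HP, against 44.5%, 39.5%, 49.4%, 54.6% and 36.1% of all sites positive at that stage. A fragment from a High or Medium/High gate was listed at all 5 stages for 3767 members (59.8%), and 4 members had none at any stage. A Low fragment was listed at all 5 stages for 2017 members (32.03%). Classed by the larger share of high or low fragments after dividing each by its total, 460 members (7.30%) were high and 146 (2.32%) low at all 5 stages, and the other members changed class. The high class held 53.3% to 59.6% of members per stage, against 54.6% to 65.9% of all positive sites. Many of these classes rest on 1 or a few fragments.

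How much DNA of a site had been cloned moved strongly with membership. The median member was covered by 203 distinct fragments in the lists of the donor vector (pDONR) and 52 in those of the reporter vector (pSKB), against 50 and 12 over all distal sites. Sites positive at exactly 4 stages lay between, with 130 and 31. Members were 0.0% of the 744 sites with no pSKB fragment, 0.615% of those with 6 to 10, 3.95% with 11 to 20, 19.8% with 21 to 50, 46.2% with 51 to 100 and 71.5% with more than 100. All 5 stage lists of pSKB held a fragment over 96.2% of members, and 40.2% of all sites. Of the 23684 sites in all 5 lists, 25.6% were members. Over the members, the number of positive sets moved with pSKB fragments (Spearman correlation 0.674 over 6298 sites) and with Negative sets (0.696), counts that share site width with it. The width itself was 683 bp at the median, against 584 bp for sites positive at exactly 4 stages and 297 bp over all sites.

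**Figure D4:**
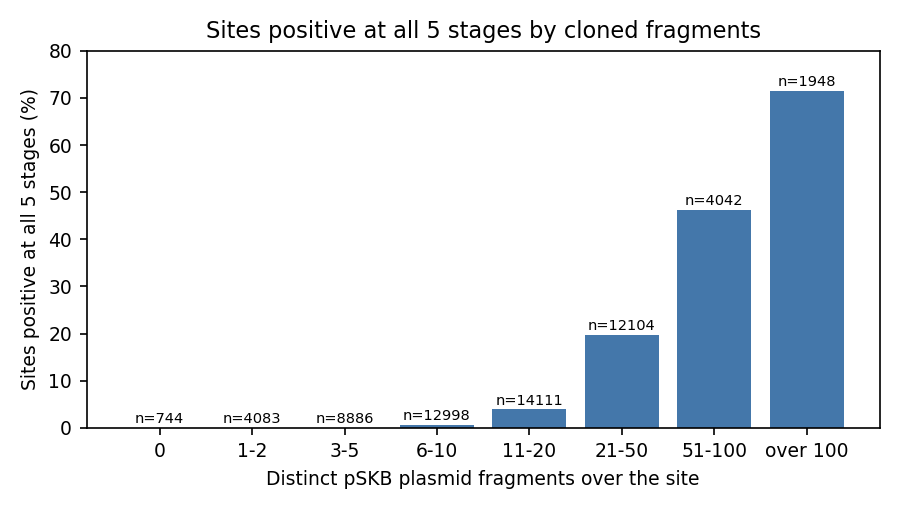
Percent of distal sites positive at all 5 stages (y axis, linear from 0) by the number of distinct pSKB plasmid fragments over the site (x axis), with the number of sites in each class above its bar. The share is 0.0% with no fragment and 71.5% with more than 100.

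Of the 164320 distinct fragments listed over members, 131197 (79.8%) were identical to a plasmid fragment, against 83.3% of all distal fragments, and every member held at least 1 such fragment. Fragments identical to those of the 3 HM-1 control lists, made from cells without a reporter, numbered 460 (0.280%), against 0.292% of all distal fragments. Filtering as the study describes would keep only plasmid matches and drop all control matches, so the deposited lists depart from it. The reason was not tested. The members took 36.0%, 38.1%, 33.8%, 34.0% and 35.6% of pSKB fragments over distal sites from ES to HP. In number these were 97191, 119209, 101752, 94463 and 75271 fragments, with medians of 11, 13, 10, 10 and 8 per member.

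The sequence of the members was not used by the rule. The 200 bp window, however, is centred on the deepest overlap of positive fragments, which the rule did use. Members had 17 of these at the median to place it, and sites positive at 1 stage had 1. The part of this in the shares below was not tested. In this window, the GC content of members was 56.0% at the median and their CpG ratio 0.319. Sites positive at 4 stages had 53.5% and 0.223, and the ratio was 0.207 over all sites. A CpG ratio over 0.6 with GC content over 50% was met in 1191 members (18.9%), and in 5.04% of all sites. Introns held 2682 members (42.6%), intergenic DNA 2710 (43.0%), coding exons 344 (5.46%), UTR exons 261 (4.14%) and exons of non-coding transcripts 301 (4.78%). Over all distal sites these shares were 51.05%, 40.7%, 2.99%, 2.24% and 3.07%. A start of an annotated transcript lay under 1500 bp away for 1299 members (20.6%), against 11.8% of all sites, and that of a protein-coding gene for 880 (13.97%), against 7.10%. The deposited lists call all of these distal.

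The CTCF motif, in the forms searched, differed most in percentage points between members and all distal sites among the 16 motifs searched. It was searched as CCAGAGGGC, CCAGATGGC, CCAGGGGGC, CCAGGTGGC, CTAGAGGGC, CTAGATGGC, CTAGGGGGC and CTAGGTGGC on both strands, and 1177 members (18.7%) held it, against 7.01% of all sites. All these strings start with C, and forms that start with G were not searched. Sites counted as without the motif may thus hold another form of it. The share was 3.79% in sites positive at no stage, 3.93% at 1, 5.24% at 2, 8.002% at 3 and 13.2% at 4. GGGCGGG of KLF and SP factors followed the same order from 1 stage on except at 3, with 3.402%, 4.08%, 4.04%, 6.41% and 11.7%. AGATAAG, bound by GATA factors, went the other way at the end. It was in 5.08%, 6.48%, 8.69% and 8.10% of sites positive at 1, 2, 3 and 4 stages and in 2.46% of members. TGANTCA, bound by AP-1, peaked at 2 stages (16.5%) and was in 8.96% of members, and TGTGGTT, bound by RUNX factors, was in 4.06% of members and 6.49% of sites positive at 1 stage.

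Sites of like cloned depth showed the CTCF and GATA orders as well. Among sites with 21 to 50 pSKB fragments, CTCF was in 24.0% of 2392 members and 7.54% of the other sites, and GATA in 1.92% and 6.35%. With more than 100 fragments CTCF was in 10.8% of 1393 members and 5.59% of the others, and GATA in 2.94% and 10.1%. With 6 to 10 fragments CTCF was in 31.25% of 80 members and 5.19% of the others. The KLF and SP motif was in 5.52% of members and 5.95% of others with 21 to 50 fragments, in 12.2% and 11.1% with 51 to 100, and in 26.3% and 18.02% with more than 100, so that its excess lay in the most cloned sites. The AP-1 motif was rarer in members in the classes given here, at 11.25% against 12.8% with 6 to 10 fragments, 8.28% against 13.2% with 21 to 50 and 8.18% against 9.55% with more than 100. These shares are descriptions, as sites near each other and alike in GC content are not independent. Sites were not matched here on the number of positive fragments, which place the window.

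**Figure D5:**
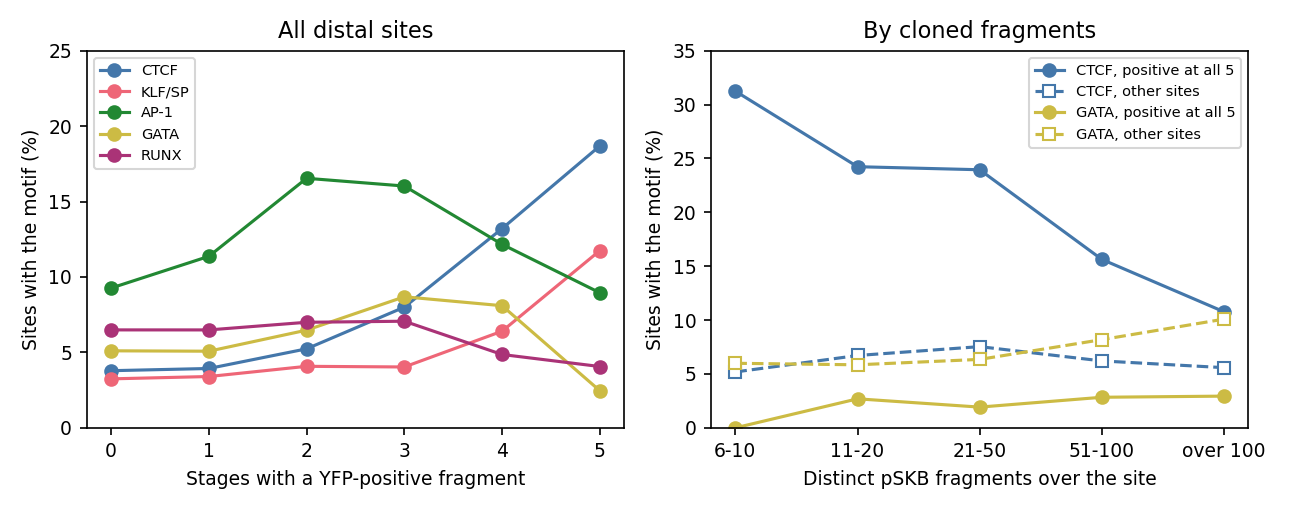
Percent of distal sites whose 200 bp window holds a motif (y axis) by the number of stages with a positive fragment (left, x axis), and by distinct pSKB fragments for sites positive at all 5 stages and all other sites (right, x axis, classes with at least 20 sites on both sides). On the left CTCF rises from 3.79% at 0 stages to 18.7% at 5 while GATA ends at 2.46%, and on the right the filled CTCF points lie above the open ones in all 5 classes and the filled GATA points below.

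Counted over Negative cells, the shares followed those over positive cells. This is no separate support, since the share of members grew along the same count. Members were 10.3%, 25.9%, 54.2% and 97.0% of the sites listed in Negative cells at 2, 3, 4 and 5 stages. Up to 3 stages most of the sites were thus not members. Among all distal sites, CTCF was in 4.51% of those listed in Negative cells at no stage, 5.80% at 1, 9.20% at 2, 11.5% at 3, 14.6% at 4 and 16.2% at 5. GATA was in 5.24%, 5.90%, 6.90%, 6.88% and 6.88% at 0 to 4 stages and 2.87% at 5. The example printed here, chosen after its values were seen, is the member with the CTCF motif and the most positive sets, with the motif in capitals on the minus strand.
chr11:95577974-95578173: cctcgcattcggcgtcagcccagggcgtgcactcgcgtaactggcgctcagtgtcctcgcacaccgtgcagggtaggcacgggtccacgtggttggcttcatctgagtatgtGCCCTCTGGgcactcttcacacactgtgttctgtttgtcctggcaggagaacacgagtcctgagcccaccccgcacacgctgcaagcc

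It lies in chr11:95577443-95578356, over a coding exon of Ngfr, a neurotrophin receptor, 9661 bp from the nearest protein-coding start. It was positive in 22 sets and listed in 13 Negative sets, with 17, 14, 23, 13 and 15 positive and 7, 5, 7, 3 and 7 Negative fragments from ES to HP. The 1177 members with the motif were positive in 10 sets and Negative in 5 at the median, against 11 and 6 for the 5121 without it, and had 41 pSKB fragments against 55. They were less often under 1500 bp from a transcription start, at 14.4% against 22.1%. The high class held them at 2.86 stages on average, against 2.79.

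The motif was about as frequent in positive as in Negative cells. Of the fragments that lay in members, those in members with the CTCF motif made up 15.7% ± 0.777 in positive and 16.2% ± 2.29 in Negative cells in ES, 16.4% ± 1.64 and 16.4% ± 2.59 in HB, 15.01% ± 1.55 and 14.7% ± 0.701 in HE1, 15.3% ± 0.358 and 16.5% ± 2.57 in HE2, and 14.9% ± 1.76 and 14.5% ± 1.75 in HP (mean ± SD, n = 5). The ranges of positive and Negative cells overlapped at each stage. No test was run, since the motif was chosen for its share in members.

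Among the members themselves, sequence moved with the number of positive sets. The members were ranked by positive sets and cut into 4 groups of like size, which splits members tied at 9 and at 12 sets. The 1575 with the fewest sets, 5 to 9, had a median GC content of 53.0%. They had CTCF in 22.9% and the KLF and SP motif in 5.78%, and 13.97% lay under 1500 bp from a start. The 1575 with the most sets, 12 to 24, had a GC content of 59.5%, CTCF in 14.5%, the KLF and SP motif in 20.1%, and 29.7% lay that near a start. Their median pSKB fragments also differed, 28 against 114.

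Other motifs were rare. CCGGAAG of ETS factors was in 3.16% of members and 1.77% of all sites, GCGCATGCG of NRF1 in 0.381% and 0.0951%, and TGACGTCA of CREB factors in 0.842% and 0.404%. ATGCAAAT of OCT factors was in 1.13% and 1.09%, CCTTTGT of SOX factors in 4.84% and 5.99%, GGAATGT of TEAD factors in 3.45% and 4.55%, and CCAATCA of NFY in 3.35% and 2.56%. AAGATGGC of YY1, CGTGGGAA of RBPJ, ACTACAATT of ZNF143 and CAGCTG, bound by basic helix-loop-helix factors, were searched in the same way, and CAGCTG was in 18.2% of members and 16.7% of all sites.

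Members lay on all chromosomes but Y. The share of sites that were members ran from 8.30% on the X chromosome, of which the male cells have 1 copy, to 13.98% on chromosome 11, where 794 of 5680 sites were members. Chromosome 11 also held 12.96% of all distal fragments and 9.64% of sites. Another member lay within 10 kb of 985 members (15.6%), and a member lay that near 11.1% of the other sites.

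By nearest protein-coding start, 4404 genes had at least 1 member, 3233 of them exactly 1, and 369 at least 3. Gse1 had the most, 12 of its 55 distal sites. It was followed by Pde4d, a cyclic AMP phosphodiesterase gene, with 10 of 46 and by Arhgap23 with 9 of 15. Rab11fip4 (8 of 24) and Sept9, a septin (8 of 41), came next. Cacna1a, a calcium channel subunit (7 of 31), Camta1 (7 of 27), Cuedc1 (7 of 27) and Sertad2 (7 of 25) had 7 each, and 1700001O22Rik had 6 of 16. Arhgap23, Rab11fip4, Sept9, Cuedc1 and Sertad2 lie on chromosome 11.

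Genes of the pathway to blood had members within 100 kb of a start. Of 18 pluripotency genes 11 had one, and 25 of the 186 distal sites around them (13.4%) were members. The counts were 38 of 214 (17.8%) around 16 hemangioblast genes, 35 of 280 (12.5%) around 18 endothelial genes and 36 of 275 (13.1%) around 18 blood genes. Around 14 genes of AP-1 and TEAD factors 45 of 212 sites (21.2%) were members, and around 14 housekeeping genes 42 of 204 (20.6%), against 10.7% of all distal sites. All 6 shares lay above that of all sites, with the housekeeping genes among the highest.

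For each list, the 4 genes whose nearby member was positive in the most sets are named. In the pluripotency list, the member over a coding exon of Klf4, chr4:55529984-55531074, was positive in 17 sets and holds a CTCF motif. It had 9, 11, 19, 12 and 11 positive and 3, 6, 10, 2 and 2 Negative fragments from ES to HP. The member in an intron of Sall4, a zinc finger factor of stem cells, chr2:168765056-168765808, was positive in 16 sets and lies 206 bp from a start. Those of Lin28a, an RNA-binding protein of stem cells (63243 bp away, in an intron of Crybg2, 16 sets), and Tdgf1, a co-receptor of Nodal (48739 bp away, 15 sets), lie nearer to other genes.

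In the hemangioblast list, chr4:115095414-115096531 was positive in 16 sets and lies 36356 bp from the nearest start of Tal1, a factor at the root of the blood lineage, and 4932 bp from that of Pdzk1ip1. It had 27, 35, 48, 35 and 42 positive and 9, 11, 25, 10 and 12 Negative fragments, and was thus listed in ES cells as well. The members near Etv2, an ETS factor of the hemangioblast (81725 bp, 14 sets), Tbx6 (27747 bp, 14 sets) and Foxf1 (19853 bp, 13 sets) lie in introns of Atp4a, Fam57b and Mthfsd. In the endothelial list, the members were those of Nrp1, a VEGF co-receptor (1279 bp, 17 sets), Dll4, a Notch ligand (25424 bp, 16 sets), Sox17 (74501 bp, 15 sets) and Eng, a TGF-beta co-receptor (41852 bp, 14 sets). That of Dll4 was listed 13, 20, 26, 26 and 20 times in positive cells from ES to HP.

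In the blood list, chr6:88202939-88204014 in an intron of Gata2, 926 bp from a start and positive in 16 sets, stood at the edge of the rule. It had 1 positive fragment in ES and 10, 12, 9 and 7 at the later stages, and 0, 2, 5, 3 and 2 Negative ones. It was in the low class at every stage and was 1 of 7 members within 100 kb of Gata2. The member over the non-coding exon at the start of Itga2b, the CD41 gene of early blood cells, 42 bp away, was positive in 15 sets and in the high class at all 5 stages. The members near Lyl1 (61966 bp, over a coding exon of Cacna1a, 17 sets) and Nfe2 (65254 bp, in an intron of Zfp385a, 16 sets) lie by other genes.

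In the list of AP-1 and TEAD factors, chr12:85485490-85486629, 11165 bp from the start of Fos, and chr8:84976186-84977092, 81 bp from that of Junb, were positive in 20 sets each. The Fos site had 26, 39, 56, 37 and 31 positive and 12, 10, 19, 9 and 11 Negative fragments. Those near Fosb (70013 bp) and Fosl1 (81559 bp) were positive in 15 sets. In the housekeeping list there were 20 sets for the members near Eef1a1 (31401 bp), Ppia (26284 bp) and Rplp0 (69464 bp) and 16 for Actb (55281 bp). The member near Ppia, 85 bp from a start of Zmiz2, had 52, 70, 86, 80 and 45 positive fragments, 233 distinct ones in all against 223 at the leading site on chromosome 8.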

How the data were processed

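The members and the gene, motif and site lists were chosen with earlier results of these data known. Per the labels and the study's methods, the authors trimmed reads with Trim Galore, aligned them to mm10 with Bowtie2, kept unique pairs with SAMtools and used bedtools to remove fragments of HM-1 control lists and to keep those in the plasmid lists and in open chromatin peaks. Whether those peaks were of the same stage, the sources read do not say. The control and plasmid filters are not met in full by the deposited sorted lists. Of their distal fragments, 83.3% had an exact match in the plasmid lists, and 0.292% were still shared with the HM-1 controls. The reason was not tested. The deposited sorted lists hold the start and end of each distinct fragment, with no read counts, and keep distal and promoter fragments apart. The deposited plasmid lists (5 pDONR, 5 pSKB) also hold whole-number read counts per fragment. Sorted starts differ by 1 bp from the plasmid starts and were aligned. All 95 sorted libraries carry group labels and were used.

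Distal intervals that overlapped were merged into sites. A set is 1 stage and replicate, with all positive gates joined. Sites were placed on GRCm38.p6 with GENCODE vM21. Motifs were searched on both strands of 200 bp windows. Shares were compared with exact permutation tests of 5 against 5 (smallest p 0.0079), with sign flips as the replicate block, and Benjamini-Hochberg adjustment. Sites were tested with limma 3.58.1 in R 4.3.3 on log2(fragments per 10000 listed + 1), after a test on simulated data. That scale understates changes of low sites. Python 3.11.15, numpy 2.4.6, pandas 2.3.3 and matplotlib 3.10.9 were used. Libraries of 504 to 131091 fragments set the precision, and distinct fragments without molecular identifiers are not independent cells. Named sites were the 5 members with the most positive sets, the 2 members per direction with the smallest p, the member with the most positive sets within 100 kb of up to 4 genes per list, the 10 genes with the most members, and the Mecom site. Sites of chromosome 18 were counted and not named. Alternatives were the threshold, bins, plasmid-identical fragments, gates, filters, the pseudocount, libraries and replicates left out, and the replicate block. Same-numbered replicates deviated together in 4 of the 10 site tests, with correlations of 0.14 to 0.53 for positive against Negative, 0.14 to 0.59 for high against low, and 0.25 to 0.64 and 0.18 to 0.32 for Negative HE1 to HE2 and HE2 to HP.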

Additional observations from a re-analysis of the deposited data

Results flagged for a closer look

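In HB, the share of Negative distal fragments that lay in sites positive at all 5 stages of the other replicates was 41.9% in replicate 1, below the 49.4% to 52.2% of the other 4 replicates. The list chosen without replicate 1 held 3703 sites against 5005 to 6280 for the others, and replicate 1 had the lowest such share in Negative cells at every stage. Over the 6298 members its share was 53.8%, within the 50.8% to 55.3% of the other replicates. In the positive cells of HB, 19.2% of the fragments in members lay in members with a CTCF motif in replicate 5, far above the other 4. Each was marked as 1 sample apart from the rest of its group of 5, and chance alone marks about 1 in 20 such groups. Among 35 groups, 2 were so marked.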

How the results depend on the processing

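Of 349 recomputed values, 311 kept their direction and their side of the threshold or stayed within the set range. Asking for positive fragments in at least 2 replicates per stage left 3129 members, of which 58.6% were in Negative cells at all 5 stages. Leaving out 1 replicate at a time gave 3703 (without replicate 1) to 6280 members, and 22.1% (without replicate 2) to 36.5% of them in Negative cells at all 5 stages. The ES to HB step in the Negative share lost its call in 500 bp bins (-7.26 points), with the replicate block (-8.17 points, exact sign-flip permutation adjusted p = 0.25) and without any 1 replicate (-8.99 to -5.33 points, adjusted p = 0.114, which 4 against 4 limits). The HB to HE1 step passed without the 4 HE1 libraries (-6.49 points), which left fewer HE1 Negative values to compare. Differences that did not pass turned sign. High less low turned in HE2 with at least 2 fragments (-0.429), in bins (-0.0435), with plasmid-identical fragments (-1.28) and without Medium (-0.158), in ES with plasmid-identical fragments (-0.621) and without Medium (-0.570), in HP without the HE1 libraries (-0.119) and without Medium (-0.583), and in HE1 without those libraries (0.894). Leaving out 1 replicate gave -2.41 to 1.71 in ES, -1.05 to 0.986 in HE2 and -0.351 to 0.578 in HP for high less low, and -5.73 to 1.18 in HE1 and -4.95 to 0.500 in HP for positive less Negative. With no filter beyond 1 set, limma called 2, 5, 1 and 2 sites in Negative cells and 3, 6, 10 and 10 in positive cells at the 4 steps. Leaving out 1 replicate gave 0 to 2 calls for positive cells of HE1 to HE2, 2 of them without replicate 4. The replicate block changed no other call. The cause was not tested in any of these. Depth limits what single sites can show, as replicate 5 held a positive fragment at 3.58% to 9.14% of the sites positive at all 5 stages in the others.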
